A study of Mus musculus with 6 samples.

Results

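The 34 genes described here encode the parts of epithelial cell contacts, the simple keratins and the factors that maintain them: 12 tight junction and polarity genes, 6 desmosome genes, 4 simple keratins, 7 epithelial regulators and 5 genes of the cell surface, of vesicle traffic and of surface proteolysis. They were listed by name from these families, with earlier results of these data known, and all 34 had a probe set carrying their symbol alone among the 22180 genes measured. They were measured in KP1, a cell line of small cell lung cancer that arose in a mouse model without Rb, p53 and p130. Control cells (3 arrays) were transfected with an empty ires-GFP vector. N1ICD cells (3 arrays) received Notch1-ICD-ires-GFP, which encodes the intracellular domain of Notch1, the released form of the receptor that enters the nucleus and activates target genes with RBPJ. Both groups were sorted for GFP 48 hours after transfection, so both are transfected cells of 1 line. The labels call the arrays of a group biological replicates without naming separate cultures, so p-values measure the spread between these samples. The sources used here do not name the promoter of the vector.

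Tight junctions seal the space between epithelial cells. Claudins and occludin form their strands, and the zonula occludens proteins tie these strands to actin. Desmosomes hold cells together mechanically: their cadherins bind across the gap, and plakoglobin, plakophilins and desmoplakin link them to keratin filaments. GRHL, OVOL and ESRP proteins maintain the epithelial state, whereas SNAI and ZEB repressors switch it off.

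In N1ICD cells the desmosomal linkers Dsp and Jup and the claudin Cldn12 rose. The tricellular tight junction protein Marveld2, the keratin Krt7, the adhesion molecule Epcam and the protease inhibitor Spint2 fell. Thus 3 of 34 members rose and 4 fell by limma's test (adjusted p under 0.05), and 27 did not pass it. Of all 22180 genes 7.10% changed, 3.82% higher and 3.27% lower, against 20.6% of the members (a description only, since results were known when the list was made). The median change of the members was -0.02 on the log2 scale, as it was over all genes (-0.02), while the median absolute change was 0.20 for the members and 0.14 for all genes. Arrays of the 2 groups did not overlap for 14 members (41.2%), 6 higher and 8 lower in N1ICD; over all genes this share was 26.1%, 11.1% higher and 15.0% lower. RNA was taken from many cells together, so a change in the number of cells expressing a gene and a change of RNA per cell cannot be told apart.

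**Figure D1:**
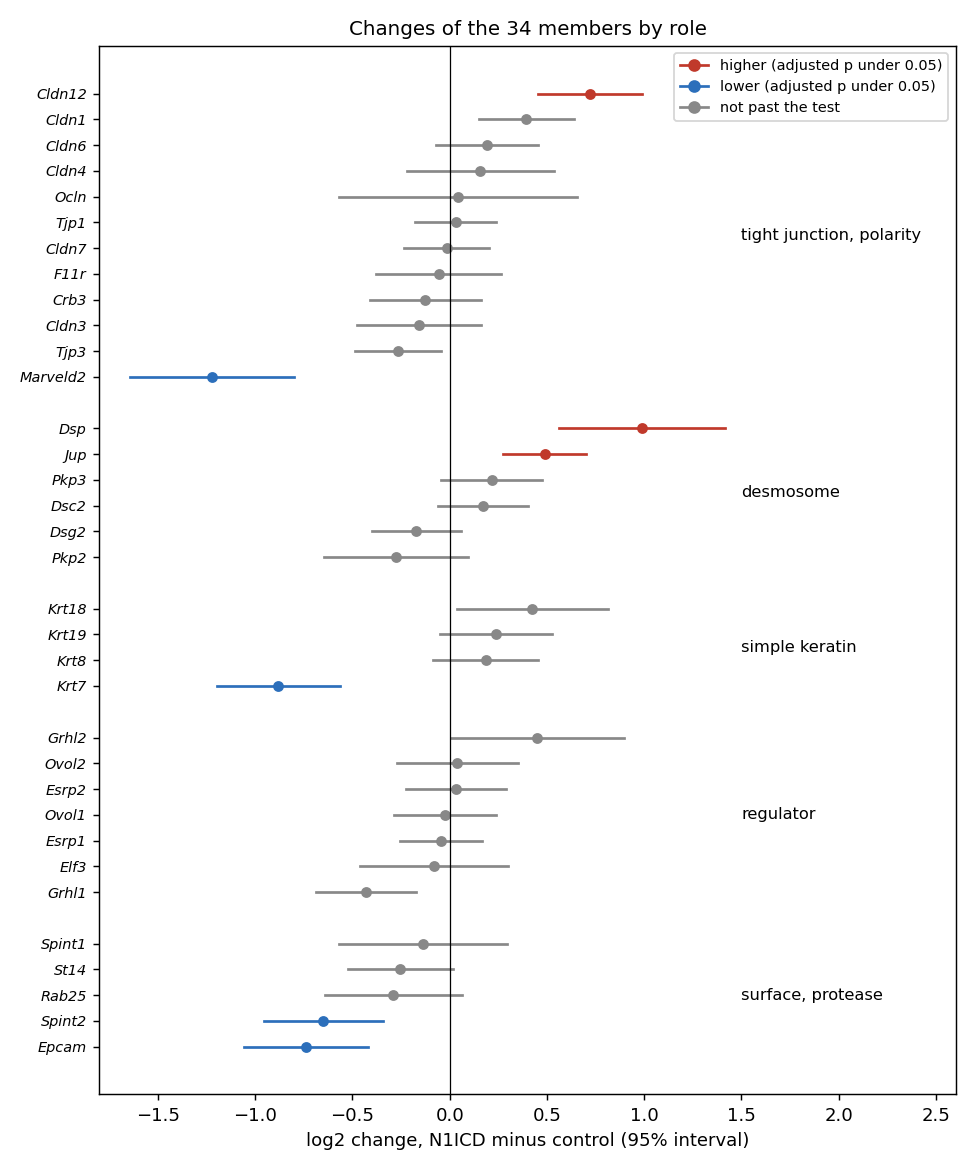
Log2 change (N1ICD minus control) of each of the 34 members with its 95% interval from limma, grouped by role, 3 arrays per group. Red marks the 3 members that rose, blue the 4 that fell and grey the 27 that did not pass the test; no regulator passed it.

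Notch1, whose intracellular domain the N1ICD vector encodes, had a log2 expression of 6.35, 6.20 and 5.96 on the control arrays and 8.07, 7.49 and 7.72 on the N1ICD arrays, a rise of 1.59 ± 0.17 (limma adjusted p = 0.000889; exact two-sided permutation p = 0.1, the smallest that 3 against 3 arrays allow). Of 8 measured neuroendocrine markers of small cell lung cancer, the mean per array was 10.06 to 10.10 in control and 9.99 to 10.13 in N1ICD. Of these 8, Chga (0.64, limma adjusted p = 0.0155) and Ncam1 (0.53, 0.0263) rose, Insm1 (-0.89, 0.0101) fell and the other 5 did not pass the test. The median of all genes per array was 6.14 to 6.24. Correlation across genes was 0.991 to 0.994 within groups and 0.980 to 0.984 between them; genes are not independent replicates, so this only describes the arrays. The mean of 8 airway markers per array was 4.57 to 4.61 in control and 5.08 to 5.24 in N1ICD (median change 0.11). Of the 8, 2 were higher, the secretoglobins of club cells Scgb3a2 (3.11) and Scgb1a1 (1.23, to an N1ICD mean of 4.55). Cyp2f2 of the same list (-0.01, limma adjusted p = 0.984) did not pass the test, nor did Foxj1 and Trp63. The last 2, which mark ciliated and basal cells, had control means of 5.34 and 4.86. The mean of 10 alveolar markers was 5.82 to 5.88 and 5.78 to 5.94, with Hopx (0.38) higher and Sftpc (-1.71) lower. The part of these markers in the changes of the members was not tested. For 15 of the 34 members the mean over the 6 arrays was lower than the median of every array, a range in which RMA shrinks differences. The brightness of a probe set depends on its probes as well as on the RNA, so levels of different genes are not compared.

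Promoters of the 7 members that moved are shown, 1 start site each (for Marveld2 and Cldn12, which have 2 and 3, the one farthest upstream), because the SNAI and ZEB repressors of epithelial genes bind a known motif in such regions, the E-box CACCTG. RefSeq windows (GRCm38.p6, 250 bases before to 50 after a start site, 300 bases in all) were used for 24 of the 34 members. This is the number searched, not the number that exist. Member windows on 1 chromosome, that of Dsc2 and Dsg2, were left out, and the counts over all genes were not limited in this way. Krt19, Pkp2, Pkp3, Esrp1, Esrp2, Grhl2, Ovol1 and St14 were not searched either, since no window was available for them. Both strands were searched for this E-box, which reads as CAGGTG on the opposite strand. The RBPJ motif GTGGGAA and a GRHL motif, written AACCNGTT, were searched in the same way. No searched window of a member held overlapping matches of different motifs. The 250 bases before the start site are printed 5′ to 3′ on the gene's strand, with the E-box in either orientation in capitals.
Epcam (chr17:87635729-87635978, plus strand): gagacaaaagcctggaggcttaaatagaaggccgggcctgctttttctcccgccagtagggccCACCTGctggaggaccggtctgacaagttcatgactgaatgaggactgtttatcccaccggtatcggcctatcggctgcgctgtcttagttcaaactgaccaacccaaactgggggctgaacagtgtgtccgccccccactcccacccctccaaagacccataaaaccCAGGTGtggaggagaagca
Spint2 (chr7:29281978-29282227, minus strand): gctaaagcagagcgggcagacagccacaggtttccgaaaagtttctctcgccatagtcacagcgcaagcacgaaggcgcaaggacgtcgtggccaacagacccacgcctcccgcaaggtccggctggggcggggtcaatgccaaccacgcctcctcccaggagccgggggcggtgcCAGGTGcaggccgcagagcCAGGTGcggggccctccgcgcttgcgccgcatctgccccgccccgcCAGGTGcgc
Krt7 (chr15:101412153-101412402, plus strand): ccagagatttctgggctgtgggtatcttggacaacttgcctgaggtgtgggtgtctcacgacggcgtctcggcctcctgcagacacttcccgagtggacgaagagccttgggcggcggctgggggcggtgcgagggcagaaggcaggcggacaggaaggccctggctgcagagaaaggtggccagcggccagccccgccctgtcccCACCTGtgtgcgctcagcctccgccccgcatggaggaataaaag
Jup (chr11:100397791-100398040, minus strand): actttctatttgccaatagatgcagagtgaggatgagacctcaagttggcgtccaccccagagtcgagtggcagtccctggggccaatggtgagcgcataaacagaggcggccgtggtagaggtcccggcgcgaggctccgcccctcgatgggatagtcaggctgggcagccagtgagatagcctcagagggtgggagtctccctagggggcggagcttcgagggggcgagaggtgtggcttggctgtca
Dsp (chr13:38151044-38151293, plus strand): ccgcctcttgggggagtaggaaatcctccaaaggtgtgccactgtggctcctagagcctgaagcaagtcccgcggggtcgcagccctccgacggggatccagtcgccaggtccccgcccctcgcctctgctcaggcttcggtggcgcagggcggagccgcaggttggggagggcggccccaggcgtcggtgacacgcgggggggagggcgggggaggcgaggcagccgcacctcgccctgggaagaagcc
Marveld2 (chr13:100616972-100617221, minus strand): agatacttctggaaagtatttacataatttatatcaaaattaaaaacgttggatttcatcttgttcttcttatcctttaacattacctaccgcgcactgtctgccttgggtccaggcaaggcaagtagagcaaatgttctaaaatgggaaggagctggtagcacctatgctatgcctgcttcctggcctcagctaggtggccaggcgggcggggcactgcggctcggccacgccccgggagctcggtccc
Cldn12 (chr5:5514977-5515226, minus strand): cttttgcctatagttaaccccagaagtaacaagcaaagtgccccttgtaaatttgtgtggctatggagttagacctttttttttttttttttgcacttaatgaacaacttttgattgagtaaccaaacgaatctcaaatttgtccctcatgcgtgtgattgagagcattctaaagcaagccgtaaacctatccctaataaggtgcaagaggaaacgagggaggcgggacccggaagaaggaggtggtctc
Spint2 held 3 E-boxes, at -74, -55 and -9 from the start site, Epcam held 2, at -187 and -19, and Krt7 held 1, at -44. In Jup and in the 3 windows of Cldn12 no match was found, and Dsp held its 1 E-box past the start site, at position 4. The overlapping windows of Marveld2, which has 2 start sites, share 1 and the same E-box, also past the start (at 44 or 17, by start site). The bases printed for Dsp, Marveld2, Jup and Cldn12 therefore show none. An E-box was thus in a window of all 4 members that fell, of 1 of the 3 that rose and of 12 of the 17 searched members that did not pass the test. Over the searched members it was in 17 of 24 (70.8%), against 22.6% of the 27025 genes with a window and 20.2% of the 32851 windows. Windows of members and of all genes were not chosen alike, so these shares and those below are a description only. The RBPJ motif was in 1 of the 24 members, Krt8 (4.17%, against 7.25% of all genes and 6.38% of all windows), and the GRHL motif in 1, Rab25 (4.17%, against 2.35% of all genes and 2.09% of all windows). A match describes letters only; base composition was not matched (GC content of the member windows ranged from 45.3% to 75.3%), and binding was not measured.

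The tight junction and polarity members held 1 rise and 1 fall, and 10 of the 12 did not pass the test (median change 0.01, and -0.05 with the arrays set to equal medians). Marveld2 encodes tricellulin, the protein that seals points where 3 cells meet. Its log2 expression was 7.65, 7.88 and 8.09 on the control arrays and 6.85, 6.27 and 6.84 on the N1ICD arrays. Every N1ICD array lay below every control array, and N1ICD replicate 2 was the lowest of all. Marveld2 fell by 1.22 on the log2 scale (SE 0.18, interval -1.65 to -0.80, a 2.33-fold difference, limma adjusted p = 0.00596).

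Cldn12, one of 6 claudins listed, had log2 expression of 6.78, 6.67 and 6.76 in control and 7.24, 7.59 and 7.54 in N1ICD. The control arrays lay close together and all N1ICD arrays above them. Its rise was 0.72 ± 0.12 (interval 0.45 to 0.99, 1.65-fold, limma adjusted p = 0.00877). Marveld2 and Cldn12 kept their calls without any 1 of the 6 arrays (highest adjusted p 0.0245 and 0.0412).

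The other claudins did not pass the test. Cldn1, a claudin of barrier epithelia, had values of 4.99, 4.83 and 5.04 in control and 5.45, 5.35 and 5.24 in N1ICD. Its groups did not overlap, but with a change of 0.39 ± 0.11 it missed the threshold (limma adjusted p = 0.0678), and both means lay below every array median. For Cldn3, Cldn4, Cldn6 and Cldn7 the groups overlapped, with changes between -0.16 and 0.19 and limma adjusted p from 0.410 to 0.963. Of these, Cldn3 was bright (mean over the 6 arrays 9.20) with an interval of -0.48 to 0.16.

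The scaffold Tjp3 (ZO-3) had values of 6.92, 6.92 and 7.06 in control and 6.63, 6.79 and 6.70 in N1ICD. All N1ICD arrays were lower, but the difference of -0.26 ± 0.10 did not pass the test (limma adjusted p = 0.170). Tjp1 (ZO-1), the brightest member probe set with a mean of 10.23, had a change of 0.03 with an interval of -0.18 to 0.24. Occludin (Ocln), a MARVEL protein like Marveld2, had values of 5.50, 6.35 and 6.62 in control and 5.97, 6.29 and 6.35 in N1ICD. Control replicate 1 was the lowest, the groups overlapped, and the interval of the change, -0.57 to 0.65, was the widest of the tight junction members. The polarity protein Crb3 and the junctional adhesion molecule F11r had changes of -0.12 and -0.06, with intervals of -0.41 to 0.16 and -0.38 to 0.26.

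**Figure D2:**
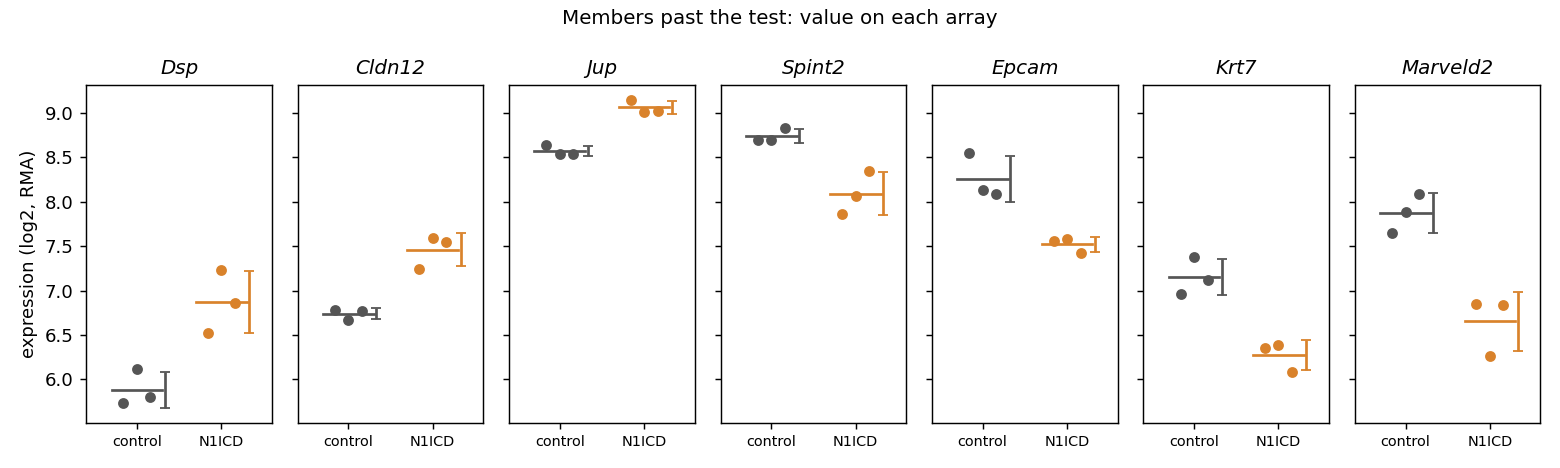
Log2 expression on each array (points; 3 control in grey, 3 N1ICD in orange) of the 7 members that passed the test, with the group mean (line) and SD (bar). The groups do not overlap for any of the 7; Dsp, Cldn12 and Jup are higher and Spint2, Epcam, Krt7 and Marveld2 lower in N1ICD.

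Among the 6 desmosome members were 2 rises and 0 falls, with 4 not past the test (median change 0.19). Dsp encodes desmoplakin, which anchors keratin filaments to the desmosome. Its log2 expression was 5.74, 6.11 and 5.80 in control and 6.52, 7.23 and 6.86 in N1ICD. All N1ICD arrays were above the control arrays, with the widest spread in N1ICD (SD 0.35 against 0.20). The control mean, 5.88, lay below every array median. Dsp rose 1.98-fold (0.99 ± 0.19, interval 0.56 to 1.41, limma adjusted p = 0.0172). The call was lost without control replicate 1 (adjusted p = 0.0551), control replicate 3 (0.0601) or N1ICD replicate 3 (0.0561), with changes of 0.91, 0.95 and 0.99.

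Jup encodes plakoglobin, the armadillo protein that bridges desmosomal cadherins and desmoplakin. It had 8.64, 8.54 and 8.54 in control and 9.14, 9.02 and 9.03 in N1ICD. The 2 groups were tight and separated. The rise was small, 1.40-fold (0.49 ± 0.09, interval 0.28 to 0.70, limma adjusted p = 0.0179), and its call was lost without control replicate 2 (adjusted p = 0.0742), control replicate 3 (0.0743) or N1ICD replicate 2 (0.0559).

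The desmosomal cadherins did not pass the test and lay on opposite sides of 0. Dsc2 (desmocollin) had 8.44, 8.46 and 8.51 in control and 8.53, 8.63 and 8.77 in N1ICD, a difference of 0.17 ± 0.10 (limma adjusted p = 0.405). Dsg2 (desmoglein) had 8.78, 8.86 and 8.76 in control and 8.50, 8.66 and 8.72 in N1ICD, a difference of -0.17 ± 0.10 (limma adjusted p = 0.402). In both genes the groups did not overlap, although N1ICD replicate 1 (Dsc2) and N1ICD replicate 3 (Dsg2) lay close to the nearest control array. A second, dimmer probe set of Dsg2 differed by 0.18, the other way, and did not pass the test either. The plakophilin Pkp3 had 5.62, 5.88 and 5.88 in control and 6.11, 6.01 and 5.91 in N1ICD (0.22 ± 0.11, limma adjusted p = 0.346). The plakophilin Pkp2 overlapped between groups (-0.28, interval -0.65 to 0.09).

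The simple keratins form filaments as pairs of a type II keratin (Krt7, Krt8) and a type I keratin (Krt18, Krt19). Only Krt7 of the 4 passed the test. Krt7 had 6.97, 7.37 and 7.12 in control and 6.35, 6.39 and 6.08 in N1ICD. All N1ICD arrays were lower, and Krt7 fell by 0.88 on the log2 scale (SE 0.14, interval -1.20 to -0.56, a 1.84-fold difference, limma adjusted p = 0.00743). Its call held without any 1 array (highest adjusted p 0.0285). The other type II keratin, Krt8, had a change of 0.19 with an interval of -0.08 to 0.45, which does not reach the interval of Krt7.

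Krt18, the usual partner of Krt8, had 7.02, 7.22 and 7.01 in control and 7.16, 7.84 and 7.52 in N1ICD. The groups overlapped, and the difference of 0.42 ± 0.17 did not pass the test (limma adjusted p = 0.209; 0.46 at a second, dimmer probe set). Krt19 had a change of 0.24 ± 0.12 (limma adjusted p = 0.348). Keratin genes have close relatives and processed copies; whether these probe sets also bind them was not tested.

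None of the 7 regulators passed limma's test. The unadjusted limma p was under 0.05 for 2 of them, Grhl1 and Grhl2, and for 4408 of all 22180 genes. Grhl1, a grainyhead transcription factor of epithelia, had 6.35, 6.56 and 6.71 in control and 6.11, 6.09 and 6.13 in N1ICD. The N1ICD arrays were nearly equal and all below the control arrays. The difference of -0.43 ± 0.11 missed the threshold narrowly (limma adjusted p = 0.0626) and passed it under 5 other settings for the values or the variance (adjusted p 0.019 to 0.0498) and without control replicate 1 (0.04). Its relative Grhl2 had 6.57, 6.20 and 6.11 in control and 7.15, 6.57 and 6.50 in N1ICD, with replicate 1 the highest of each group. The groups overlapped, and the difference of 0.45 ± 0.19, in the opposite direction, did not pass the test (limma adjusted p = 0.246; 0.0492 with the replicate number as a block).

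The splicing regulators Esrp1 and Esrp2 had changes of -0.04 and 0.03, with intervals of -0.25 to 0.17 and -0.23 to 0.29. The zinc finger repressors Ovol1 and Ovol2 had changes of -0.02 and 0.04, with intervals of -0.29 to 0.24 and -0.27 to 0.35. The ETS factor Elf3 had a change of -0.08 (interval -0.46 to 0.30). The means of 4 of the 7 regulators, Esrp1, Esrp2, Ovol1 and Ovol2, lay below every array median, so these intervals hold for the RMA values only.

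All 5 surface, traffic and protease members had a lower mean in N1ICD, as did 12082 of all 22180 genes. Of the 5 members, 2 fell and 3 did not pass the test (median change -0.29). Epcam encodes the epithelial cell adhesion molecule, which binds claudins at the membrane. It had 8.56, 8.14 and 8.09 in control and 7.56, 7.58 and 7.42 in N1ICD. Control replicate 1 was the highest, and no N1ICD array reached a control array. Epcam fell by 0.74 on the log2 scale (SE 0.14, interval -1.06 to -0.42, a 1.67-fold difference, limma adjusted p = 0.0174). The call was lost without N1ICD replicate 1, 2 or 3 (adjusted p = 0.0505, 0.0553 and 0.0611).

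Spint2 encodes a Kunitz inhibitor of membrane serine proteases such as matriptase. It had 8.69, 8.70 and 8.83 in control and 7.87, 8.07 and 8.34 in N1ICD. The control arrays lay close together, the N1ICD arrays were spread but all lower. Spint2 fell by 0.65 on the log2 scale (SE 0.13, interval -0.95 to -0.34, limma adjusted p = 0.0245). This was the least firm call, lost without 5 of the 6 arrays, with N1ICD replicate 3 the exception (adjusted p 0.0579, 0.0698 and 0.0896 without control replicates 1, 2 and 3, 0.0588 and 0.0921 without N1ICD replicates 1 and 2).

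St14, which encodes matriptase, had 6.15, 6.25 and 6.03 in control and 5.71, 6.03 and 5.93 in N1ICD. All N1ICD arrays were lower, though N1ICD replicate 2 and control replicate 3 were nearly equal, and the difference of -0.25 ± 0.12 did not pass the test (limma adjusted p = 0.281). The related inhibitor Spint1 had a change of -0.14 (interval -0.57 to 0.29; 0.0065 without control replicate 2). The apical recycling GTPase Rab25 had a change of -0.29 (interval -0.64 to 0.06).

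**Figure D3:**
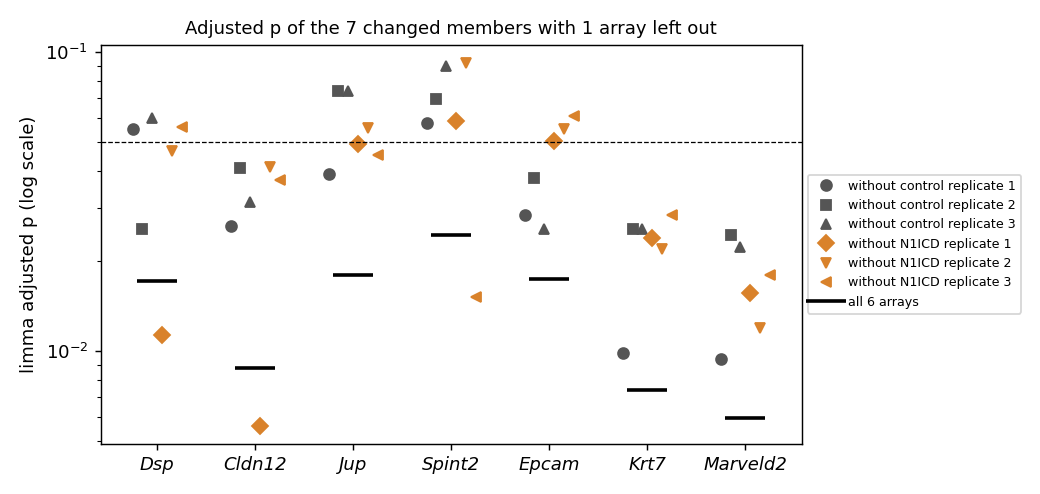
Limma adjusted p (log axis) of the 7 changed members with all 6 arrays (black bar) and with each array left out (symbols, grey for control and orange for N1ICD); the dashed line is the threshold of 0.05. Marveld2, Krt7 and Cldn12 stay below it throughout, Dsp, Jup and Epcam cross it in 3 of 6 fits and Spint2 in 5 of 6.

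The 3 larger groups were set side by side together with other genes of the same structures. Of 12 other desmosome and plakin genes 2 rose and 0 fell. Perp, a tetraspan desmosome protein, had 5.09, 5.37 and 4.74 in control and 9.34, 9.13 and 9.06 in N1ICD, a 17.3-fold rise (4.11 ± 0.16, limma adjusted p = 3.99e-06). Its control mean, 5.07, lay below every array median, where RMA shrinks differences, so this fold holds for the RMA values only. Pkp1, a plakophilin, had 7.32, 6.61 and 6.83 in control and 9.85, 9.68 and 9.42 in N1ICD, a 6.63-fold rise (2.73 ± 0.19, limma adjusted p = 0.000103). Both rises were larger than that of any member. The other 10 genes, among them the epidermal desmogleins and desmocollins and the plakins Ppl and Evpl, did not pass the test.

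Of 38 other tight junction and polarity genes 2 rose and 2 fell. Cgnl1 (paracingulin), which links junctions to actin and microtubules, rose 9.69-fold (3.28 ± 0.15, limma adjusted p = 8.76e-06), from 6.22, 5.92 and 5.72 in control to 9.06, 9.24 and 9.38 in N1ICD. Its control mean, 5.95, also lay below every array median. Cldn19 rose by 0.85 ± 0.10 (0.01 at a second, dimmer probe set). Jam2, a junctional adhesion molecule, fell by 0.59 on the log2 scale (limma adjusted p = 0.0111), a call lost without control replicate 2 (adjusted p = 0.0504). Marveld1 (-0.51, limma adjusted p = 0.0440), the fourth changed gene of this list and so outside the naming rule, was named with its value known; its call was lost in 5 of the 6 fits with an array left out (adjusted p up to 0.153). Of 12 other epithelial regulators 1 rose, Grhl3 (0.45 ± 0.10, limma adjusted p = 0.0357), and in 5 of the 6 fits with an array left out this call was lost (adjusted p up to 0.130), as it was with the arrays set to equal medians (0.0623).

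Counting listed and other genes together, 4 of 18 desmosome genes rose and 0 fell, 3 of 50 tight junction and polarity genes rose and 3 fell, and 1 of 19 regulators rose and 0 fell. The shares that changed were 22.2%, 12% and 5.26%, beside 7.10% of all genes. These shares are a description only, since results were known when the lists were made. The median changes of these 3 sets were 0.07, -0.02 and -0.04, beside -0.02 over all genes. Whether the sets differ from each other was not tested. In the tight junction and polarity set the changed genes lay on both sides; among desmosome genes those that changed were higher in N1ICD, and most of either set did not pass the test.

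**Figure D4:**
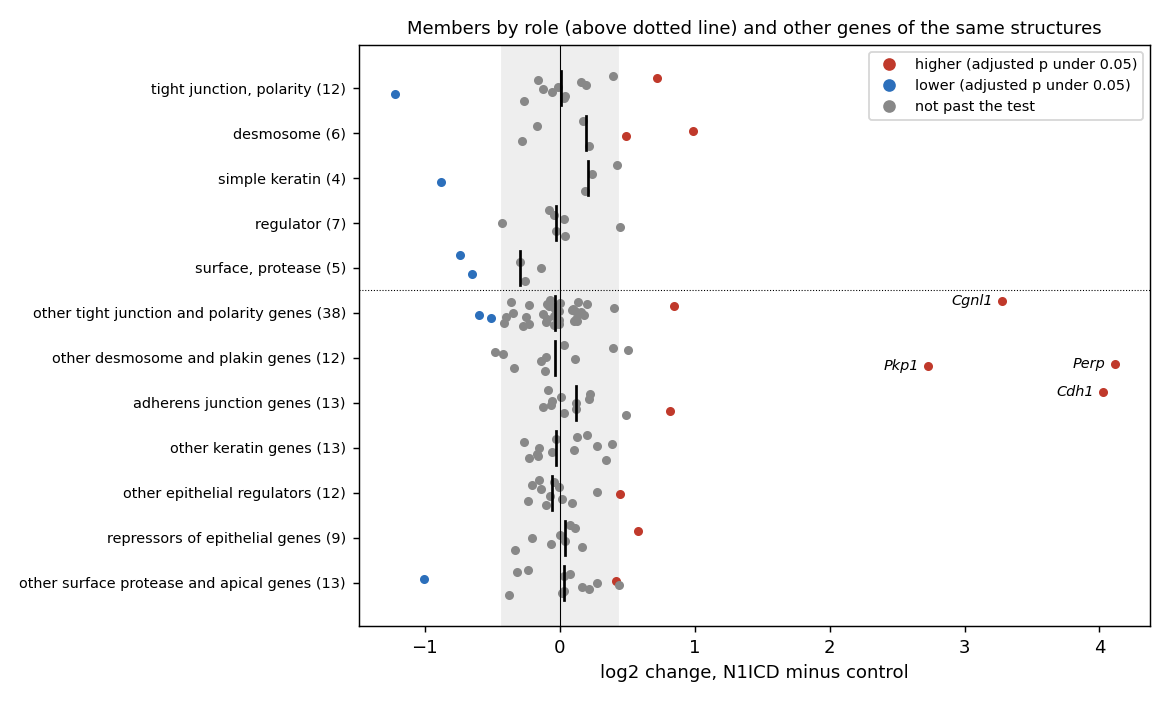
Log2 change (N1ICD minus control) of each gene, one row per role of the members and per list of other genes, with the number of genes measured; black bars are medians, the grey band spans the 5th to 95th percentile of all 22180 genes (-0.43 to 0.43). The 4 changes beyond 2 are those of Perp, Cdh1, Cgnl1 and Pkp1, none of them a listed member.

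Of 13 other keratins, among them Krt14 and Krt17 of stratified epithelia and Krt20 of gut epithelium, 0 rose and 0 fell by limma's test. For 2 (Krt15 and Krt16, named with their values known) the unadjusted limma p was under 0.05, as it was for 4408 of all 22180 genes. Of 9 repressors of epithelial genes 1 rose and 0 fell, beside 3.82% and 3.27% of all genes. Snai2 (Slug) had 9.18, 8.92 and 8.81 in control and 9.67, 9.63 and 9.36 in N1ICD, a rise of 0.58 ± 0.13 (limma adjusted p = 0.0386). Its call was lost without control replicates 2 or 3 (adjusted p = 0.125 and 0.130) or N1ICD replicates 1 or 2 (0.114 and 0.140). Snai1 (0.11 ± 0.16, limma adjusted p = 0.777) and Zeb1 (-0.33 ± 0.12, limma adjusted p = 0.183) did not pass the test, although all N1ICD arrays lay below all control arrays for Zeb1.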

How the data were processed

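Total RNA of 6 samples of the KP1 line, 1 Affymetrix Mouse Gene 2.0 ST array each, was measured. The deposited values are taken as log2 expression after RMA (background correction, quantile normalization, probe set summary). RMA is named, without a version, in the submitters' processing notes; no source used here states the log base, which was taken as RMA's own. Background was not measured, and RMA compresses changes of dim probe sets.

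The authors' deposited table holds 41345 probe sets, of which 23521 carry 1 gene symbol in the platform annotation. Each of the 22180 genes was represented by its brightest such probe set over the 6 arrays. N1ICD was compared with control with limma 3.58.1 in R 4.3.3 (lmFit, eBayes, two-sided, Benjamini-Hochberg adjustment over all genes, threshold 0.05). Each ± after a change is the SE of that fit, each ± after a group mean the SD over 3 arrays, and intervals are 95%. The fit was tested on simulated data. It recovered 16.4% of changes of 0.5 on the log2 scale, 68.7% of those of 1.0 and 98.5% of those of 2.0. Only 67, 67 and 66 genes were given changes of these sizes, and 124 genes were called, against 1574 in the data. With fewer calls the adjustment is stricter, so these shares do not give the recovery in the data. A gene that did not pass the test may still have changed.

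Arrays were grouped by the labels. The members and gene lists were chosen with earlier results of these data known. All members are accounted for; those past the test or with groups that do not overlap are given array by array. From each wider list up to 3 genes past the test are named by size, and Cdh1, Zeb1, Snai1 and Snai2 whatever their result. Zeb2 was not analysed here. Alternatives were other normalizations, a filter on dim genes, other variance models, a block for the replicate number, and fits without each array. Promoter windows are RefSeq's (GRCm38.p6). Figures were drawn with matplotlib 3.10.9.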

Additional observations from a re-analysis of the deposited data

How the results depend on the processing

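The 3 members that rose and 4 that fell were called under all 7 other settings for the values and the variance (quantile normalization again, equal array medians, cyclic loess, dim genes left out, the mean over probe sets, array quality weights, robust eBayes with an intensity trend). Grhl1 joined the falls in 5 of these, all but cyclic loess and the mean over probe sets. At an adjusted p under 0.01, 1 member rose (Cldn12), 2 fell (Marveld2 and Krt7) and 668 genes changed in all. With 1 array left out, 1 to 3 members rose, 2 to 4 fell, and 823 to 1230 of the 22180 genes changed. Replicate numbers were not shown to pair the arrays (correlations of same-numbered deviations 0.232, 0.00831 and 0.201). With the replicate number as a block, 4 members rose, Grhl2 being added, 4 fell, 1518 genes changed and Notch1 changed by 1.59. Each array correlated best with its own number except control replicate 2 and N1ICD replicate 2, and Grhl3 and Muc1 lost their calls under the block. No changed member reversed under any of these settings. With dim genes left out, 18 of the 34 members remained. The alternatives for Notch1, for members not past the test and for genes that are not members were chosen after the data were examined. Precision is limited by 3 arrays per group.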

Other observations

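Adherens junctions, the cadherin-based contacts beside tight junctions and desmosomes, were followed with 13 genes, of which 2 rose and 0 fell. Over all 22180 genes 3.82% rose and 3.27% fell. Results were known when the lists were made, so the counts given here are a description only. Cdh1, the epithelial cadherin, had 5.26, 5.56 and 5.16 in control and 9.57, 9.12 and 9.38 in N1ICD, a rise of 4.03 ± 0.15 on the log2 scale (limma adjusted p = 2.91e-06; 1.05 at a second, dimmer probe set). Its control mean, 5.33, lay below every array median, so the size of this rise holds for the RMA values only. Nectin3, an immunoglobulin-like adhesion molecule, rose 1.76-fold (0.82 ± 0.09, limma adjusted p = 0.00139). Both kept their calls without any 1 array. Of 13 other surface protease and apical genes 1 rose and 1 fell. Mal2, a protein of apical transport, had 9.19, 9.01 and 9.44 in control and 8.05, 8.05 and 8.53 in N1ICD, a fall of 1.01 on the log2 scale (limma adjusted p = 0.00968). The mucin Muc1 rose by 0.42 ± 0.10 (limma adjusted p = 0.0498), and 5 of the 6 fits with an array left out lost this call (adjusted p up to 0.163).

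Of 6 endothelial markers 2 rose, Kdr (3.04) and Tek (1.06), while Cdh5, Pecam1, Emcn and Cldn5 did not pass the test. Of 7 macrophage markers 1 rose, Lyz2 (0.52), and of 8 fibroblast markers 1 rose, Pdgfrb (0.89), and 1 fell, Pdgfra (-0.74). Over all genes 3.82% rose and 3.27% fell, and these counts of markers are a description only.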
